A study of Sus scrofa with 32 samples.

Results

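IGFBP2 and IGFBP3 are genes of insulin-like growth factor (IGF) binding proteins, and their transcripts were followed here in the livers of pig fetuses. They were taken from all probes of a liver array series whose transcript accession in the array design maps to either gene. Of 43603 probes, 2 qualified, 1 per gene: A_72_P178161 for IGFBP2 (NM_214003) and A_72_P165666 for IGFBP3 (NM_001005156). The pair was chosen because both genes had risen over gestation in control livers, so their control values are given as a description without a test.

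IGF1 and IGF2 are secreted growth factors that act through the receptor IGF1R, and most of the IGF in body fluids is carried by binding proteins. IGFBP2 is a major binding protein of fetal blood, and liver is one of its main sources. IGFBP3 is the main carrier after birth, when it forms a complex with an IGF and the acid-labile subunit, the product of IGFALS. Growth hormone, acting through its receptor GHR, drives hepatic IGF1 and IGFALS in postnatal animals. In rat liver IGFBP3 transcripts are known from the non-parenchymal cells, whereas the acid-labile subunit comes from hepatocytes.

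The study asked how growth retardation before birth alters the developing liver. Runts and control littermates came from gilts with 1 uterine horn and 1 ovary removed, so that the fetuses were crowded, and this surgery was shared by both fetus types. The 8 groups were day 37 runts and controls, day 50 runts and controls, day 70 runts and controls, and day 110 runts and controls, each with 4 livers, for 32 arrays. The livers of a day came from 4 distinct gilts. The controls shared the crowded uterus, so an uncrowded pregnancy was not measured.

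Levels are log2 processed signals relative to the 75th percentile of the array, so that 0 is the signal at that percentile. Signals are background-subtracted fluorescence intensities. Both probes were well above background on 32 of 32 arrays, and 0 spots were saturated. Across the arrays 51.3% to 69.4% of spots were well above background, and between arrays of 1 group the correlation across probes was 0.962 to 0.985. Liver identity was checked on 6 measured hepatocyte markers, among them ALB, TTR and APOA1, which were all well above background on 32 arrays. Of 6 markers of the neighbouring pancreas on the array, INS and GCG were well above background on 0 of 32 arrays and PNLIP on 1, whereas CPB1 was on 11, CPA1 on 22 and PLA2G1B on 31. Of muscle markers, MYH7, TNNI1, CKM and DES (also listed here for stellate cells and fibroblasts) were well above background on 32 arrays. ACTA1 and TNNT3 were so on 11, MYH1 on 7, and MYH2 and MYL1 on 3. Of kidney, gut and adrenal markers, CYP11A1 was on 24, SLC34A1 on 18, FABP2 on 3, CYP17A1 on 1 and STAR on 0. The source of these signals was not tested. The place of an array on its slide went with the gestational day, apart from day 50 runt 1, so day and place cannot be told apart. Day 50 runt 1 was the only array on slide 9, lay at the place of the day 37 arrays and was scanned on another day than the others. The arrays lay on 9 slides, and on the second component of variation those of slides 1 to 3 scored 13.1 to 63.4, against -56.6 to 5.78 for those of slides 4 to 9 other than day 37 runt 2, which scored 24.5 and lay among the first set. Both sets held runts and controls of every day. Of day 37 controls, day 50 runts, day 70 runts and day 110 controls, however, slides 1 to 3 held only replicate 4. The 4 arrays per group limit the precision of every value.

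IGFBP2 climbed through gestation in both fetus types. At day 37 its signal was 7040, 1160, 1060 and 5220 in the 4 runts, against 2550, 1620, 961 and 969 in the 4 controls. On the log2 scale these were levels of 4.15, 1.80, 1.91 and 4.23 in runts and of 2.63, 2.00, 1.49 and 1.94 in controls. Runts 1 and 4 lay above every control, while runts 2 and 3 lay among the controls, so the groups overlapped.

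At day 50 the IGFBP2 signal was 33600, 19900, 7540 and 24100 in runts, against 9150, 8060, 5780 and 6570 in controls. The levels were 7.05, 5.79, 4.58 and 6.37 in runts and 4.63, 4.43, 4.38 and 4.62 in controls. Runts 1, 2 and 4 lay above all 4 controls, and runt 3 lay within their range. Runt 1, the highest, was the array alone on its slide and scanned on another day. The controls were tightly grouped, with an SD of 0.13, against 1.05 in the runts of that day (n = 4 each).

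At day 70 the IGFBP2 signal was 66700, 47600, 57900 and 39200 in runts, against 29000, 40200, 48500 and 27400 in controls. The levels were 7.66, 7.09, 7.71 and 7.08 in runts and 6.41, 6.94, 7.34 and 6.60 in controls. Control 3 lay above runts 2 and 4, and the other controls lay below every runt.

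At day 110, close to term, the IGFBP2 signal was 161000, 124000, 84500 and 66300 in runts, against 144000, 106000, 77600 and 64500 in controls. The levels were 8.45, 8.43, 7.85 and 8.55 in runts and 8.34, 7.96, 7.69 and 7.86 in controls. Runts 1, 2 and 4 were again above all controls, and runt 3 lay below controls 1, 2 and 4. Runt 4 had the highest level but the lowest signal among the runts, as the 75th percentile of its array, 177, was the lowest of all arrays.

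**Figure D1:**
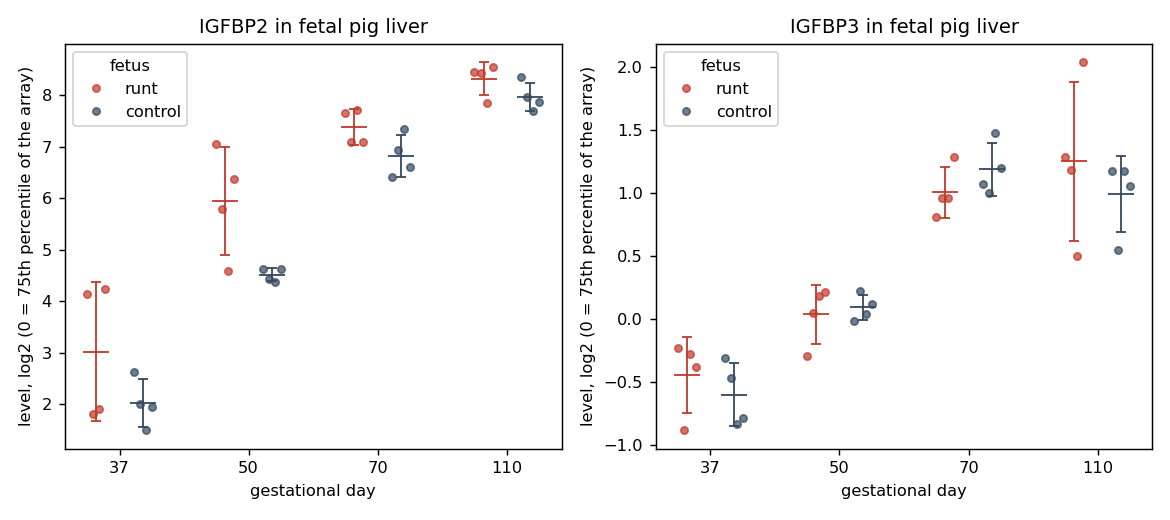
Levels of IGFBP2 (left) and IGFBP3 (right) on each array, in log2 units relative to the 75th percentile of the array, by gestational day. Points are single livers (n = 4 per group), long ticks are means and bars are SDs; the IGFBP2 mean is higher at each later day in both fetus types, with group means between 2.02 and 8.32, while the IGFBP3 means run between -0.60 and 1.25.

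Group means of IGFBP2, in log2 units, were 3.02 ± 1.35 in runts and 2.02 ± 0.47 in controls at day 37 (SD, n = 4 for each group). They were 5.95 ± 1.05 in runts and 4.52 ± 0.13 in controls at day 50. They reached 7.38 ± 0.35 in runts and 6.82 ± 0.41 in controls at day 70, and 8.32 ± 0.32 in runts and 7.96 ± 0.28 in controls at day 110. Ordered by mean level, the groups ran day by day, with the controls of each day just below its runts. Within that order the ranges of neighbours overlapped in all cases but one, day 37 runts and day 50 controls.

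Over the runt course IGFBP2 rose 39.3-fold between day 37 and day 110, a log2 change of 5.30 (SE 0.46, adjusted p = 2.11e-10). Adjusted p-values are from limma with Benjamini-Hochberg adjustment over 29361 probes, and a change between days was called at an adjusted p under 0.05 and at least 2-fold. IGFBP2 was called in that comparison, as were 27.2% of all tested probes in either direction. By size of change it ranked 84 of 29361. Every day 110 runt lay above every day 37 runt, and 22.8% of probes showed the same separation. The runts were littermates of the controls whose rise led to the choice of both genes, and shared their days and the fit. The p-values, ranks and calls of both genes over the runt course are therefore not independent of that choice.

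The largest step came first. Between day 37 and day 50 IGFBP2 rose 7.60-fold in runts, a log2 change of 2.93 (SE 0.46, adjusted p = 0.000198). Here 5.81% of probes were called, and IGFBP2 ranked 29 of 29361 by size. All 4 day 50 runts lay above the highest day 37 runt, a separation that 10.4% of probes showed.

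Between day 50 and day 70 IGFBP2 rose 2.71-fold in runts, a log2 change of 1.44 (SE 0.46, adjusted p = 0.0215). In this comparison 7.97% of probes were called. The 4 day 70 runts lay above the 4 day 50 runts, with day 50 runt 1 at 7.05 next to day 70 runt 4 at 7.08, and 13.8% of probes were separated in this way. Without day 50 runt 3 the change was 0.98 (adjusted p = 0.119), and the call was also lost without day 70 runt 1 (adjusted p = 0.0568) or day 70 runt 3 (adjusted p = 0.0547). With quantile normalization it was 1.13 (adjusted p = 0.0743). Within slides 1 to 3, which held only runt 4 of day 50 and runt 4 of day 70, it was 0.71.

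Between day 70 and day 110 the IGFBP2 change in runts was 0.93, or 1.91-fold (SE 0.46, adjusted p = 0.142), which did not pass. In this last interval 11.2% of probes were called. The day 110 runts nonetheless all lay above the day 70 runts, as they did for 12.7% of probes.

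In controls IGFBP2 changed by 2.50 between days 37 and 50, by 2.31 between days 50 and 70 and by 1.14 between days 70 and 110, in log2 units. Together these made a 61.7-fold difference between day 110 and day 37 (5.95, SE 0.46). The 3 intervals differ in length. Per day IGFBP2 gained 0.225, 0.0718 and 0.0234 log2 units in runts and 0.192, 0.115 and 0.0285 in controls over the successive intervals, so the gain per day was smaller in each later interval.

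Of the whole runt rise of IGFBP2, 55.2% lay in the first interval, 27.1% in the second and 17.6% in the third. In controls the shares were 42.0%, 38.8% and 19.2%. The difference between the runt change and the control change was 0.43 for the first interval (95% CI -0.90 to 1.75), -0.87 for the second (-2.20 to 0.45) and -0.21 for the third (-1.53 to 1.12). All of these intervals include 0, and they leave room for differences of over 1 log2 unit.

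**Figure D2:**
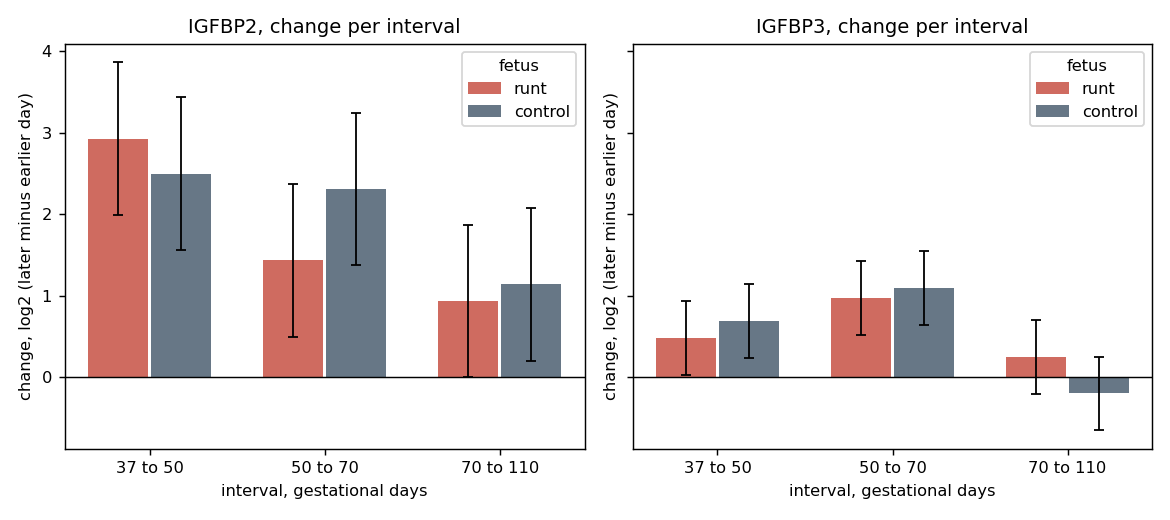
Change in log2 level between successive days for IGFBP2 (left) and IGFBP3 (right), runts beside controls. Bars are group-mean differences with 95% confidence intervals; the runt bars of IGFBP2 shrink across the intervals (2.93, 1.44, 0.93), and those of IGFBP3 are tallest between days 50 and 70 (0.97).

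Runts had more IGFBP2 transcript than controls on average at every day, but the difference passed in no comparison. The mean difference over the 4 days was 0.84 in log2 units, or 1.79-fold (SE 0.23, 95% CI 0.37 to 1.31). Its adjusted p was 0.113 and its unadjusted p from limma was 0.00104. That fit did not pair littermates. With day and replicate number as a block the limma adjusted p was 0.0504, although the labels do not say that the number marks a litter. IGFBP2 was not among the probes called for this mean, which were 0.259% of those tested. Of 16 runts, 13 lay above the control mean of their day.

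The IGFBP2 difference was widest at day 50, at 1.43 (2.70-fold, 95% CI 0.50 to 2.37, adjusted p = 0.308), where 0.0817% of probes were called. At day 37 it was 1.01 (2.01-fold, 95% CI 0.07 to 1.94), at day 70 it was 0.56 (1.48-fold, -0.37 to 1.50) and at day 110 it was 0.36 (1.28-fold, -0.58 to 1.29). None of these had an adjusted p under 0.05; the calls over all probes came to 0% at day 37, 0% at day 70 and 0.0136% at day 110. At an unadjusted limma p under 0.05 were 2.52% of probes at day 37 and 1.84% at day 70. Runts and controls overlapped at every day, whereas all 4 runts lay above all 4 controls for 0.698%, 2.97%, 0.606% and 1.18% of probes at days 37, 50, 70 and 110.

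Leaving out 1 array at a time gave 0.60 to 1.41 at day 37, 1.07 to 1.89 at day 50, 0.42 to 0.73 at day 70 and 0.26 to 0.51 at day 110 for IGFBP2. Within slides 1 to 3 its difference was 1.12, 1.87, 0.11 and 0.34 at days 37, 50, 70 and 110, and within slides 4 to 9 it was 0.94, 1.28, 0.81 and 0.44. At each day the value within slides 1 to 3 rested on a single array of one fetus type. That array was control 4 at days 37 and 110 and runt 4 at days 50 and 70. The point estimates of IGFBP2 thus differed between days, but a difference between days was not shown. The F-test of the runt effect across days gave 1.11 for IGFBP2 (limma adjusted p = 1.00, unadjusted 0.363), and 0.00341% of probes were called by it. The mean effect was 0.86 within slides 1 to 3, 0.87 within slides 4 to 9 (adjusted p = 0.466) and 0.71 with slide as a fixed block (adjusted p = 0.234). The mean effect passed only without day 37 runt 2 (adjusted p = 0.0469), day 37 runt 3 (adjusted p = 0.0453) or day 50 runt 3 (adjusted p = 0.0319), which lay lowest in IGFBP2 among the runts of their days.

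**Figure D3:**
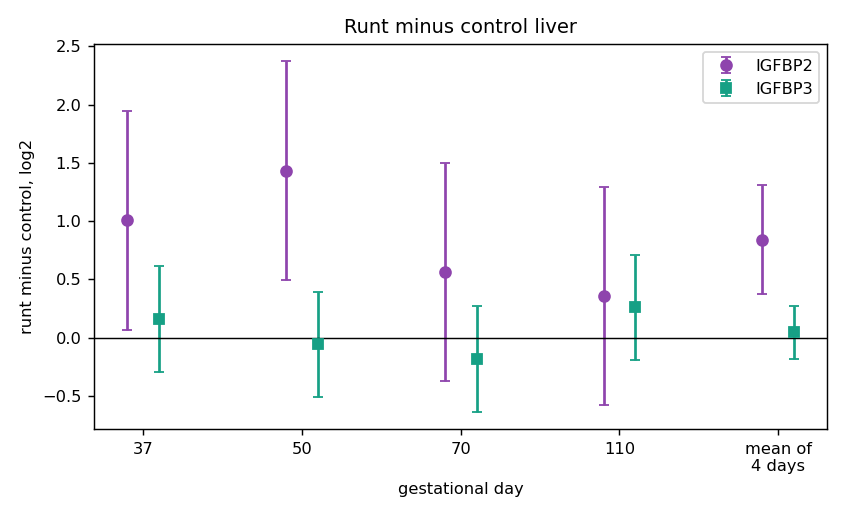
Runt minus control difference in log2 level at each day and averaged over the 4 days, for IGFBP2 (circles) and IGFBP3 (squares), with 95% confidence intervals. The IGFBP2 interval clears 0 at day 37, at day 50 and for the mean before any adjustment over probes, and every IGFBP3 interval spans 0.

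IGFBP3 also rose in runts, 3.23-fold between day 37 and day 110, with its largest step between days 50 and 70. Its day 37 levels were -0.23, -0.88, -0.27 and -0.38 in runts and -0.31, -0.47, -0.83 and -0.79 in controls. At day 50 they were -0.30, 0.05, 0.18 and 0.21 in runts and -0.01, 0.22, 0.04 and 0.12 in controls. Day 50 runt 1, the array alone on its slide and scanned on another day, lay below every control of its day and among the day 37 runts. The groups overlapped at both days.

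At day 70 the IGFBP3 levels were 0.81, 0.96, 0.96 and 1.29 in runts and 1.07, 1.00, 1.48 and 1.20 in controls. At day 110 they were 1.28, 1.18, 0.50 and 2.04 in runts and 1.17, 0.55, 1.18 and 1.06 in controls. Day 110 runt 4 had the highest IGFBP3 level of all 32 arrays, and day 110 runt 3 lay below every day 70 array. The 75th percentile of the array of day 110 runt 4, against which its level was set, was 177, and the next lowest was 252. Its signal lay below those of day 110 runts 1 and 2 and controls 1 and 3. In signal these day 110 livers read 1120, 816, 518 and 726 in runts, against 1000, 621, 853 and 577 in controls.

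Mean IGFBP3 levels, in log2 units, were -0.44 ± 0.30 in runts and -0.60 ± 0.25 in controls at day 37, and 0.04 ± 0.23 in runts and 0.09 ± 0.10 in controls at day 50 (SD, n = 4 for each group). They were 1.01 ± 0.20 in runts and 1.19 ± 0.21 in controls at day 70, and 1.25 ± 0.63 in runts and 0.99 ± 0.30 in controls at day 110. Ordered by mean, the day 37 and day 50 groups came first, and the 4 groups of days 70 and 110 came last. Only the step between day 50 controls and day 110 controls, neighbours in that order, had ranges that did not overlap.

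The IGFBP3 rise in runts between day 37 and day 110 was a log2 change of 1.69 (SE 0.22, adjusted p = 3.55e-07), and the 2 sets of arrays did not overlap. In this comparison 27.2% of probes were called and 22.8% rose without overlap, and IGFBP3 ranked 3799 of 29361 by size. Most of the IGFBP3 rise lay between days 50 and 70, at 0.97 (SE 0.22, adjusted p = 0.00225). That change, 1.96-fold, fell just short of the 2-fold rule and was therefore not called. Every day 70 runt nonetheless lay above every day 50 runt, as for 13.8% of probes. It crossed 2-fold without day 50 runt 3 (1.02), day 50 runt 4 (1.03) or day 70 runt 1 (1.03), and with slide as a fixed block it was 0.67 (adjusted p = 0.0618).

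The other IGFBP3 intervals in runts did not pass: 0.48 between days 37 and 50 (adjusted p = 0.144) and 0.24 between days 70 and 110 (adjusted p = 0.466). The last value rested on day 110 runt 4, and was -0.02 without it. In controls the IGFBP3 changes were 0.69, 1.09 and -0.20 over the successive intervals, and 1.59 (3.01-fold) between day 110 and day 37. The change of runts minus that of controls was 0.44 in the last interval (95% CI -0.20 to 1.08).

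Runts and controls overlapped in IGFBP3 at every day. The runt minus control difference was 0.16 at day 37, -0.06 at day 50, -0.18 at day 70 and 0.26 at day 110, in log2 units. The mean over the days was 0.05 (95% CI -0.18 to 0.27, adjusted p = 0.962), so the interval reaches at most 0.27 in favour of runts. Of 16 runts, 9 lay above the control mean of their day. The sign of the day 50 value turned with slide as a fixed block (0.23), and that of the day 110 value without day 110 runt 4 (-0.0011).

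The 2 genes followed each other across days more than within groups. Over 32 arrays their levels correlated at r = 0.87, a value that the shared gestational course dominates. Over the 8 group means r was 0.94, and over deviations from group means it was 0.21. Among 1505 gene symbols compared, IGFBP3 ranked 39 in likeness to IGFBP2, and IGFBP2 ranked 30 in likeness to IGFBP3. These correlations describe points that share the day, the slides and the scaling.

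The genes closest to IGFBP2 over the 32 arrays were APOC3, an apolipoprotein of triglyceride-rich particles (r = 0.95), FUT1, a fucosyltransferase (0.94), VTN, the plasma adhesion protein vitronectin (0.94), MAGI3, a scaffold protein (0.93), and SLC4A4, a sodium bicarbonate cotransporter (0.93). Within groups the same correlations were 0.47, 0.43, 0.23, 0.44 and 0.41. SLC4A4 was well above background on 0 of 8 day 37 arrays and on 2 of 4 day 50 runts, so its early values mark only a bound. Mean APOC3 levels were 7.48, 8.40, 8.96 and 9.22 in runts of days 37, 50, 70 and 110, against 7.40, 8.07, 8.79 and 9.14 in controls. The runt mean of APOC3 thus lay above the control mean at each day, as for IGFBP2. APOC3 was chosen by its correlation with IGFBP2 over these same arrays, so this likeness is a description.

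Running most opposite to IGFBP2 were TLDC2 (-0.96), ADSS, an enzyme of AMP synthesis (-0.93), and CITED1, a transcriptional co-regulator (-0.91). Mean TLDC2 levels were -0.60, -2.95, -4.96 and -6.80 in runts of days 37, 50, 70 and 110, against 0.18, -2.30, -4.87 and -7.04 in controls. TLDC2 was well above background on 17 of the 32 arrays, and CITED1 on 1 of 8 at day 110, so the late values of both mark only a bound.

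The genes closest to IGFBP3 were NR1H3, the sterol-sensing liver X receptor alpha, ITM2B, a membrane protein, CXCL10, an interferon-induced chemokine, PEG10, an imprinted gene of retroviral origin, and ST8SIA4, a polysialyltransferase, each at r = 0.90. Their correlations with IGFBP3 within groups were 0.30, 0.62, 0.33, 0.17 and 0.52. The mean PEG10 level was 6.86, 7.44, 8.21 and 8.21 in runts of days 37, 50, 70 and 110, against 6.79, 7.31, 8.14 and 8.16 in controls. The most opposite to IGFBP3 were LMNA, the gene of lamins A and C (-0.88), TLDC2 (-0.87) and KLRK1, an activating receptor of natural killer cells (-0.87). KLRK1 levels averaged 1.09, -1.07, -2.74 and -2.16 in runts over these days, against 1.29, -0.02, -2.48 and -2.30 in controls.

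Of 101 genes listed for the axis, 50 were on the array and 44 were measured. In runts 1 of them rose and 0 fell between days 37 and 50, where 5.81% of all probes were called. Between days 50 and 70, where 7.97% were, 1 rose and 1 fell. The fall was that of STC1, which was well above background on only 1 of the day 50 runts. Its size is therefore only a bound, at least 1.00-fold. Between days 70 and 110, 7 rose and 3 fell, against 11.2% of probes called. Between days 37 and 110, 16 rose and 4 fell, against 27.2% of probes called, with a median log2 change of 0.25 over the list against 0.04 over all tested probes. In controls the calls were 0 of 44 in the first interval (5 at an unadjusted limma p under 0.05), where 3.38% of probes were called, and 3 in the second, where 7.67% were. They were 9 in the third, where 12.6% were called, and 19 between days 37 and 110, where 29.4% were. Of the 44, 0 were called between runts and controls at any day or for the mean. With normexp background correction 18 were called at day 50 and 9 for the mean, where 11195 and 10915 of all probes were, and within slides 4 to 9 1 was called for the mean. At an unadjusted limma p under 0.05 there were 1, 1, 3 and 2 of them at days 37, 50, 70 and 110, and 5 for the mean.

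Neither measured ligand passed in any comparison. IGF2, the main IGF of the fetus, differed in runts by 0.21 between day 110 and day 37 (SE 0.20, adjusted p = 0.393) and in controls by 0.14 (adjusted p = 0.556). The other 4 IGF2 probes changed in runts by 0.38, 0.45, 0.23 and 0.37 over that span (adjusted p = 0.0436, 0.0356, 0.203 and 0.0768), all under 2-fold. In controls these probes differed in sign, at 0.01, -0.11, -0.34 (adjusted p = 0.0467) and 0.16. Their runt minus control differences at day 110 were 0.49, 0.63, 0.57 and 0.41, none of them called. IGF1 differed by 0.35 in runts (SE 0.24, adjusted p = 0.228) and by 0.22 in controls (adjusted p = 0.441), and for the mean over days its runt minus control difference was -0.21 (adjusted p = 0.635).

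Of the receptors, GHR rose steeply at the end. Its level averaged 0.33 ± 0.53 in day 110 runts, against -3.38 ± 0.39 in day 70 runts (SD, n = 4 each), a log2 change of 3.71 (adjusted p = 1.59e-10). In controls it averaged 0.44 ± 0.37 at day 110, against -4.20 ± 0.42 at day 70, a change of 4.64 (adjusted p = 1.80e-11). GHR was well above background on 4 of 4 arrays in day 70 runts and on 2 of 4 in day 70 controls. IGF1R was not called in either course, with 0.05 in runts (adjusted p = 0.858) and -0.53 in controls (adjusted p = 0.0175, under 2-fold) between day 110 and day 37.

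Of the other binding proteins and the acid-labile subunit, 3 of 3 measured members rose between day 37 and day 110 in each fetus type. Over that span 27.2% of all probes were called in runts and 29.4% in controls. IGFALS changed by 1.52 in runts and 1.84 in controls (adjusted p = 0.000337 in runts and 3.32e-05 in controls). Its rise lay after day 70, at 1.58 in runts (adjusted p = 0.000613) and 2.40 in controls (adjusted p = 2.26e-06), an interval in which IGFBP3 did not pass in runts. IGFBP5, a binding protein of connective tissue and bone, rose by 1.39 in runts and 1.20 in controls, and IGFBP6, which prefers IGF2, rose by 1.08 in runts and 1.44 in controls.

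Of the 9 measured proteases and inhibitors, 2 rose and 1 fell in runts between day 37 and day 110, near the 27.2% called over all probes. MMP2, a gelatinase, rose by 1.25 in runts and 1.42 in controls, and TIMP1, an inhibitor of such enzymes, fell by 1.05 in runts and 1.25 in controls. STC1, a stanniocalcin, was at least 1.81-fold higher in day 110 runts than in day 37 runts (adjusted p = 0.00182), a bound because it was not well above background at day 37, and at least 1.64-fold higher in day 110 controls than in day 37 controls (adjusted p = 8.79e-06). It was measured above background on 3 of 4 day 110 runts and on 4 of 4 day 110 controls. MMP9, a gelatinase of granulocytes, fell by 1.52 in runts between days 70 and 110 (adjusted p = 0.0405), and in controls it rose by 1.75 between days 50 and 70 (adjusted p = 0.0206). In that control comparison all 4 measured granulocyte markers, MMP9 among them, were called higher, and 7.67% of all probes were called.

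Among the 6 measured binding partners and surface proteins, VTN was the single axis gene called in runts between days 37 and 50, at 1.04 (adjusted p = 0.000102), and its second probe gave 0.61, under 2-fold. Between day 37 and day 110 VTN rose by 1.57 in runts and 1.68 in controls. CAV1, the caveolin of endothelial membranes, rose by 2.67 in runts and 3.34 in controls. ITGB3, an integrin subunit of platelets, fell by 3.33 in runts and 2.75 in controls, and all 3 measured megakaryocyte markers, ITGB3 among them, fell in both. Over this span 27.2% of all probes were called in runts and 29.4% in controls. Of 6 measured signalling genes 0 were called in either course. Over the whole span 1 had an unadjusted limma p under 0.05 in runts and 1 in controls, as did 55.6% and 58.5% of all probes.

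Of the 16 measured regulators of the axis, 8 rose and 2 fell in runts between day 37 and day 110, where 27.2% of all probes were called. SOCS2, a feedback inhibitor of growth hormone signalling, rose between days 70 and 110 8.60-fold in runts (adjusted p = 5.43e-11) and 5.79-fold in controls (adjusted p = 2.10e-09), the same interval as GHR. IL6 was at least 4.56-fold higher in day 110 runts than in day 37 runts (adjusted p = 5.55e-05), a bound, and differed by 2.80 in controls (adjusted p = 0.000121), where 1 of 4 day 37 arrays had it well above background. LEPR, the leptin receptor, was at least 2.11-fold higher in runts (adjusted p = 6.81e-07), with 3 of 4 day 110 runts well above background. In day 110 controls LEPR was well above background on 1 of 4 arrays, and no bound could be given. NR3C1, the glucocorticoid receptor, rose by 1.09 in runts (adjusted p = 5.69e-05) and 1.02 in controls (adjusted p = 0.000150) between days 50 and 70. STAT5A, a transcription factor downstream of GHR, fell by 2.33 in runts and 2.54 in controls over the whole span, and JAK2, the kinase bound to GHR, fell by 1.17 in runts and 1.18 in controls. LEP, the leptin gene, fell by 1.10 in controls between days 50 and 70 (adjusted p = 0.00808). Probes disagreed for TNF, whose main probe was not called while a second one gave 1.04 in runts over the whole span (adjusted p = 0.0302), and for STAT3, whose main probe gave 1.06 and whose others gave 0.85 and -0.47.

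**Figure D4:**
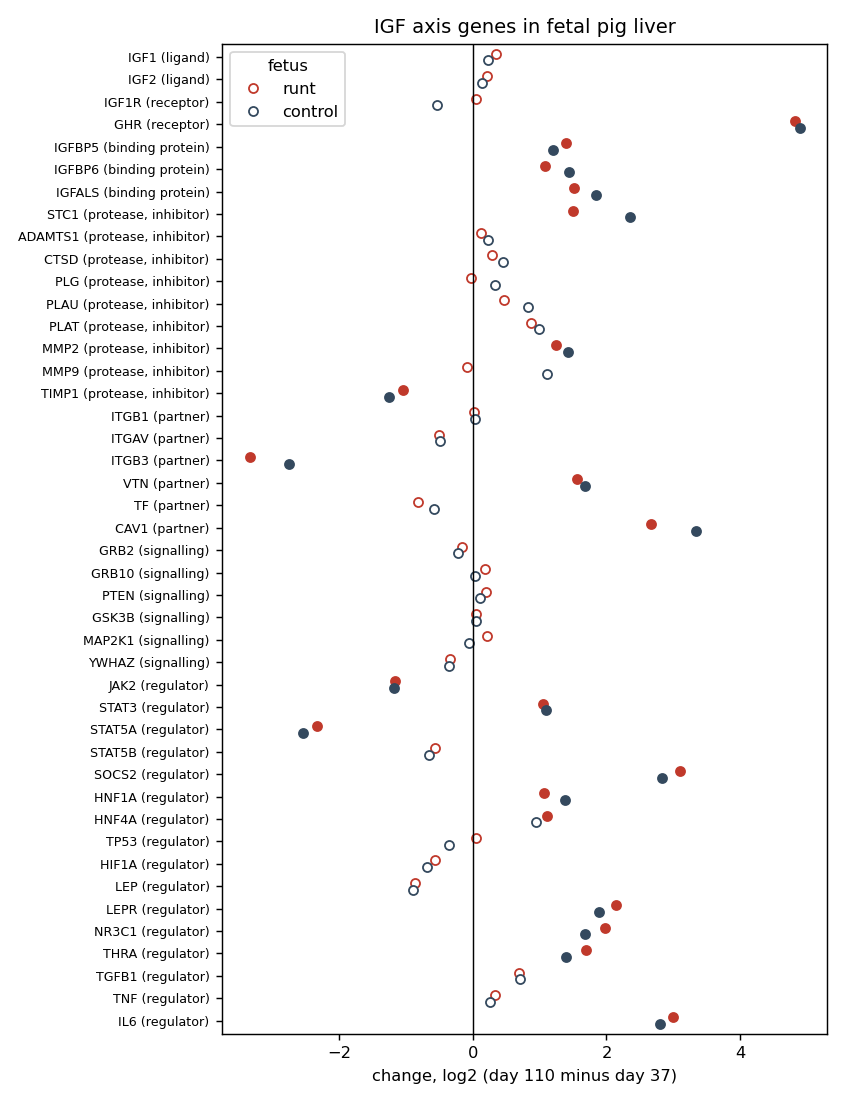
Log2 change between day 37 and day 110 for the 44 measured genes of the IGF axis, grouped by role, with runts above controls in each row. Filled points passed (adjusted p under 0.05 and at least 2-fold) and open points did not; GHR stands far right (4.83 in runts, 4.89 in controls), IGF1 and IGF2 stay near 0, and STC1, LEPR and IL6 are drawn at their measured values although they lay below background early.

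In whole liver, fewer cells of a type and less RNA per cell cannot be told apart, so the markers of the cells that could hold these transcripts are given beside them. The log2 of the summed signal of the 6 hepatocyte markers averaged 10.9 in day 110 runts and 10.8 in day 37 runts, against 10.9 in day 110 controls and 10.8 in day 37 controls. Of these 6 markers 0 were called between days 37 and 50 in runts, the interval of the largest IGFBP2 step, where 5.81% of all probes were, and 1 had an unadjusted limma p under 0.05, as did 29.7% of all probes. Over the whole span, where 27.2% of all probes were called in runts and 29.4% in controls, 2 of the 6 were called in runts. These were ALB, the gene of albumin, at 3.42 and HNF4A, a hepatocyte transcription factor, at 1.11, and 1 was called in controls, ALB at 1.39. The other 4 in runts lay between -0.82 and 0.33, and the median of the 6 was 0.11 in runts and 0.09 in controls. For the mean over days ALB fell by 1.53 in runts relative to controls (limma adjusted p = 0.0216), and the other 5 were not called.

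Markers of several cell types rose over the span in which IGFBP3 rose, those of endothelial cells among them. Between day 37 and day 110, 27.2% of all probes were called in runts and 29.4% in controls. All 7 measured endothelial markers were called higher in runts over that span (median 1.73), and 6 of 7 were in controls (median 1.45). Their summed level ranged from 5.50 to 6.04 in day 110 runts, against 3.74 to 3.94 in day 37 runts, and from 5.57 to 5.96 in day 110 controls, against 3.91 to 4.23 in day 37 controls. Between days 70 and 110 that sum went on upward, with a mean of 5.78 in day 110 runts against 4.78 in day 70 runts, while IGFBP3 did not pass. Between days 50 and 70, the largest IGFBP3 step, 1 of 7 endothelial markers was called higher in runts and 0 in controls. Of 7 measured lymphocyte markers 5 were called higher in that interval in runts and 4 in controls, and 0 lower. In that interval 7.97% of all probes were called in runts and 7.67% in controls. Some lymphocyte markers lay near background, such as CD8A, well above it on 11 of 32 arrays. Of 5 Kupffer and monocyte markers 4 rose in runts over the whole span, and of 6 stellate and fibroblast markers 2 did, where 27.2% of all probes were called. All 3 measured erythroid markers fell in both fetus types, with a mean summed level of 1.99 in day 110 runts against 6.70 in day 37 runts, and of 2.60 in day 110 controls against 6.81 in day 37 controls. The summed level of the 3 measured pancreas markers averaged -1.18 in day 110 runts against 2.84 in day 37 runts, and -1.83 in day 110 controls against 2.72 in day 37 controls. Of these PLA2G1B fell by 5.06 in runts and fell by 6.90 in controls, and CPA1 rose by 2.73 in runts and 3.23 in controls. The part of any of these cells in the IGFBP2 and IGFBP3 values was not tested.

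The first component of variation over all tested probes took 45.7% of the variance and ordered the days. IGFBP2 correlated with it at r = 0.85 over the 32 arrays and at 0.36 over deviations from group means, and IGFBP3 at 0.78 and 0.02. The mean score was -75.8, -47.4, 13.1 and 129 in runts of days 37, 50, 70 and 110, against -86.6, -65.4, 8.54 and 124 in controls of those days. The score therefore differed between runts and controls in the same direction as IGFBP2, and its part in the IGFBP2 difference was not tested.

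**Figure D5:**
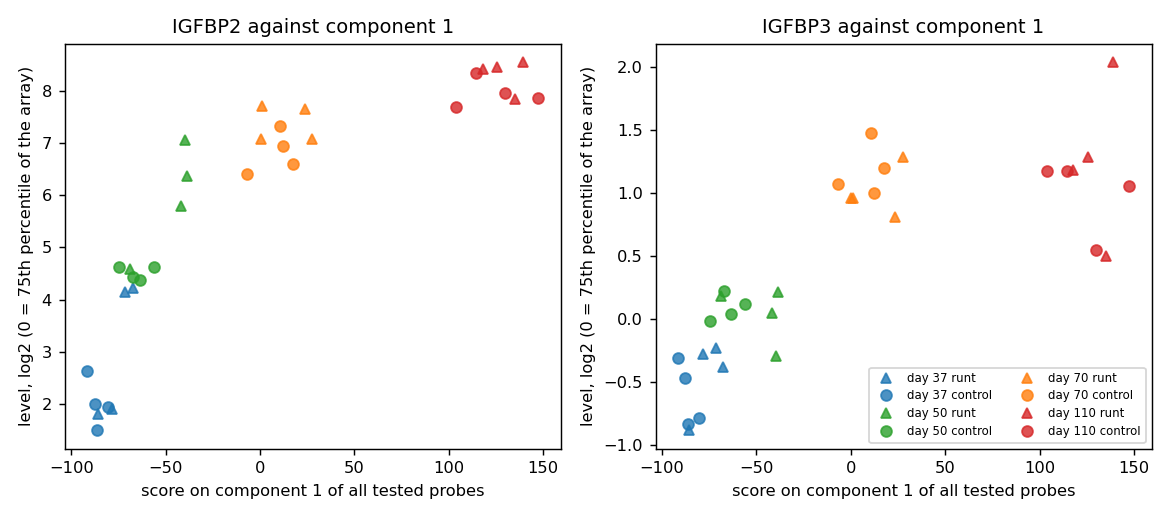
Level of IGFBP2 (left) and IGFBP3 (right) in log2 units against the score of the same array on the first component of all tested probes; triangles are runts, circles are controls and colours are days. The day 37 runts with IGFBP2 levels of 4.15 and 4.23 have the highest scores of that day, and the day 50 runt at 4.58 has the lowest score among its runts. At day 70 this order is not kept: the lowest runt, at 7.08, has the highest score of that day, 27.4, and the highest runt, at 7.71, scores 0.957.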

How the data were processed

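Fetal pig liver RNA of 32 animals, 4 in each of 8 groups of day and fetus type, was hybridised to single-colour Agilent arrays. Per the file headers, Feature Extraction 10.7.3.1 gave each spot a background-subtracted processed signal, an intensity, written to 3 significant digits. A log2 table deposited by the authors, with Partek named in the submitters' processing notes, served as an alternative. The protocols in the labels write PND, and gestational days were taken from the titles.

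Control spots and outlier spots were left out, spots of a probe were averaged, and each log2 level was set against the 75th percentile of its array. Probes were named through RefSeq accessions, which matched 2683 of 43603 probes and gave 1904 symbols (annotation Sscrofa11.1). A probe entered the tests where 3 or 4 arrays of some group had it well above background, which left 29361, of which 2284 had a symbol. The probe with the highest mean stood for a gene. limma 3.58.1 (run in R 4.3.3) fitted the 8 group means to the 32 arrays together (residual df 24), without pairing littermates. Tests were two-sided, with Benjamini-Hochberg adjustment across every tested probe. Changes between days were called at an adjusted p under 0.05 and at least 2-fold, and runt against control differences at an adjusted p under 0.05. The method was tested on simulated data.

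The members, gene lists and rules were chosen with earlier results of these data known. All measured ligands, receptors and binding proteins of the IGF axis were named, and of other roles up to 3 rises and 3 falls among those that passed. The 5 most alike and 3 most opposite genes were taken by Pearson r among symbols well above background on at least 16 arrays. A gene not well above background on any array of its lower group is given as at least N-fold, against the lowest signal well above background. Alternatives were background correction, normalization, scaling, source of values, filters, probes per gene, arrays in the fit, slide, replicate block, leaving out each array and exact permutation tests. The files used hold median rather than mean spot signals, so normexp (offset 50) used those. No coordinates or sequences were used here.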

Additional observations from a re-analysis of the deposited data

How the results depend on the processing

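Of 274 recomputed IGFBP2 values with a test 262 kept their direction and their side of the threshold, 9 lost the call and 3 gained it. Of 274 for IGFBP3, 261 did, 3 gained the call and 10 turned sign. All 88 recomputed control values of each gene, which have no test, kept their direction. IGFBP2 between day 110 and day 37 in runts was called under every alternative run, at 4.89 to 5.70. Between days 50 and 70 IGFBP2 in runts lost the call with quantile normalization (1.13, adjusted p = 0.0743), with the authors' deposited table (1.13, adjusted p = 0.0759), with only the arrays compared in the fit (1.44, adjusted p = 0.0626), within slides 1 to 3 (0.71) and within slides 4 to 9 (1.68, adjusted p = 0.0559). Slides 1 to 3 held only runt 4 of day 50 and runt 4 of day 70. There the IGFBP2 change between days 37 and 50 also lost the call, at 3.30, with fewer arrays in the fit. IGFBP3 turned sign for runts minus controls at day 50 with slide as a fixed block (0.23) or a random block (0.0024) and within slides 1 to 3 (0.13), at day 37 (-0.019) and for the mean (-0.0016) within slides 4 to 9, and between days 70 and 110 in runts within slides 1 to 3 (-0.020). Leaving out 1 array at a time gave 0.98 to 1.80 for IGFBP2 and 0.86 to 1.03 for IGFBP3 between days 50 and 70 in runts, 0.74 to 0.95 for the mean IGFBP2 runt effect and -0.020 to 0.11 for that of IGFBP3. It gave -0.017 to 0.49 for IGFBP3 between days 70 and 110, and for IGFBP3 runts minus controls -0.11 to 0.055 at day 50 and -0.0011 to 0.51 at day 110. Replicate numbers did not meet the requirement for pairing that every same-number correlation be over 0.1 (-0.09 to 0.43, median 0.18 against -0.07 for unlike numbers, with 13 of 16 over 0.1 and 10 of 16 runts closest to their own number). With the replicate block the mean IGFBP2 runt effect had an adjusted p of 0.0504, the IGFBP2 and IGFBP3 calls did not change, and the numbers of probes called were 56 at day 50, 1 at day 70 and 198 for the mean. Probes called in the runt course, in the order of its 3 intervals and the whole span, numbered 1707, 2341, 3302 and 7980, against 670, 620, 1649 and 3774 with normexp, 0, 0 and 1237 in the intervals within slides 1 to 3, and 299 in the first interval within slides 4 to 9. At day 50 the 24 probes called between runts and controls became 11195 with normexp, 45 with quantile normalization, 47 with the deposited table, 15 with no filter, 2 with only the arrays compared, 0 with slide as a fixed block and within slides 1 to 3, and 1 within slides 4 to 9. At day 110 the 4 became 2 with normexp, 1 with only the arrays compared and within slides 4 to 9, and 0 with slide as a fixed block. For the mean the 76 became 10915 with normexp, 46 with no filter, 1 and 200 with slide as a fixed and a random block, 0 within slides 1 to 3 and 24 within slides 4 to 9. The 1 probe whose runt effect differed between days became 0 with normexp, quantile normalization, the deposited table, either slide block and either slide set (459 probes had an unadjusted limma p under 0.05). Without single arrays these counts ran over 0 to 2 at day 37, 5 to 68 at day 50, 0 to 1 at day 70, 1 to 12 at day 110, 39 to 180 for the mean and 0 to 2 for the difference between days. Axis calls between runts and controls, 0 throughout, became 18 at day 50 and 9 for the mean with normexp, and 1 for the mean within slides 4 to 9. The 31 calls of axis genes in the control course became 14 with normexp and 15 within slides 1 to 3. Relative to the scaling used, normexp moved the median of all probes by up to 0.37 (runts minus controls at day 50) and scaling on probes detected on all arrays by up to -0.20 (runts, days 50 to 70). There the share of called probes that were higher was 41.4%, against 94.7% with normexp and 19.0% on detected probes, and between days 37 and 50 it was 84.6%, against 29.1% with normexp. Of 279 recounts of called probes 68 moved by over 1.5 times, as did 29 of 309 for the axis list. The cause was not tested for any of these shifts.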

Other observations

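TLDC2 levels in day 37 runts 1 to 4 were -1.70, 0.12, 0.43 and -1.22, and CITED1 levels were 0.59, 1.23, 2.07 and 0.48, so that runts 1 and 4, with IGFBP2 at 4.15 and 4.23, had the lowest values of both genes. ADSS, the other gene most opposite to IGFBP2, did not separate these runts, with 1.35, 1.75, 1.92 and 1.75. APOC3 levels were 7.67, 7.53, 7.02 and 7.69, with runt 2 close to runts 1 and 4, and VTN levels were 7.01, 6.79, 6.95 and 6.51, with runt 4 lowest. At day 50 runt 3, lowest in IGFBP2 at 4.58, had the highest CITED1 level of its group, -0.36, against -2.06, -1.12 and -2.07 in runts 1, 2 and 4. These genes were chosen for their correlation with IGFBP2, so these values are a description.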
